A study of Saccharomyces cerevisiae with 66 samples.

Results

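The 54 genes described here encode proteins of the mitochondrial ribosome of budding yeast (Saccharomyces cerevisiae). They were chosen by name alone, as the gene lines whose symbol is MRPL, MRPS or RSM followed by a number, out of 6171 gene lines in the authors' table. Of these, 34 belong to the large subunit (MRPL) and 20 to the small subunit (MRPS and RSM). The deposited table describes 53 of the 54 as mitochondrial ribosomal proteins, and it lists MRPL16 under its older name RML16. All 54 passed the filter on low counts and were tested among 5828 genes.

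Mitochondrial ribosomes translate the few messenger RNAs of the mitochondrial genome, which mostly encode respiratory chain and ATP synthase subunits. Nearly all of their proteins are encoded in the nucleus, translated in the cytosol and imported, and they assemble there on ribosomal RNA made in the organelle. In yeast many of these nuclear messengers carry a binding element for Puf3, a Pumilio family RNA-binding protein that recruits the CCR4-NOT deadenylase.

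The libraries were made from poly(A) RNA of diploid cells 4 h into sporulation medium, the starvation medium in which yeast enters meiosis. There were 66 libraries of 11 strains, each strain with 3 IAA and 3 DMSO libraries. All strains were MATa/alpha diploids that shared ho::LYS2, lys2 and ura3, the hisG disruptions leu2::hisG and trp1::hisG, and an insertion at his3 (p550 to p555 in the labels), and the titles give the control strain, WT, a TIR ligase and no tagged factor. In the other strains the labels name a target with an IAA7 degron tag: POP2 and NOT5 (subunits of CCR4-NOT, POP2 being a deadenylase), DCP2 (the decapping enzyme), LSM1 and PAT1 (decapping activators), PAB1 (the poly(A)-binding protein), XRN1 and RAT1 (the cytoplasmic and the nuclear 5′ exonuclease) and RRP6 (a nuclear exosome subunit). The CAF40 strain, for another CCR4-NOT subunit, has a genotype label without a tag and was placed by its title. Auxin (indole-3-acetic acid, IAA, 500 µM) directs a tagged protein to destruction, and it was added with copper sulphate (50 µM) 3 h after the transfer. Because IAA and DMSO samples carry an identical protocol, it is not known from the labels if copper went into the DMSO cultures. The labels also leave unsaid whether the 3 libraries of a group came from separate cultures, so p-values measure the spread between these libraries.

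Depth was 12.6 to 28.3 M counts per library, and 3 counts in a library correspond to 0.106 to 0.238 CPM (counts per 1 M counts of the library). Levels are in CPM after TMM scaling (trimmed means of log ratios), with scaling factors of 0.630 to 1.17 that were lowest in the PAB1 libraries. Transcripts of 8 meiotic entry genes were present in every library (IME1, the master regulator of meiotic entry, at 1984 to 5345 CPM). Of 7 haploid mating genes, the a-factor genes MFA1 and MFA2 were at 0 in 7 and 26 libraries and below 0.75 CPM in all, while the receptor genes STE2 and STE3 and FUS1 were at 0 in no library and reached 28.9, 31.4 and 38.5 CPM. The POP2 transcript itself, which the degron does not target, was lower with IAA in the POP2 strain (94.4 ± 5.13 with DMSO and 60.1 ± 9.40 CPM with IAA, SD, n = 3, adjusted p = 2.54e-04), but not beyond the change in WT (log2 difference -0.48, adjusted p = 0.131). With DMSO the target's own transcript was called lower than in WT in some strains (limma). These were PAB1 (log2 difference -1.25, adjusted p = 1.76e-06), NOT5 (-0.70, 3.45e-06), LSM1 (-0.66, 1.24e-05) and DCP2 (-0.53, 3.53e-04). It was not called in POP2 (0.03), CAF40 (-0.14), PAT1 (-0.54, 0.0527), RAT1 (-0.64, 0.0660), RRP6 (-0.66, 0.208) or XRN1 (-0.47, 0.999). The differences in PAT1, RAT1 and RRP6 were larger than the one called in DCP2. With IAA the target's transcript was also called lower in LSM1 (log2 change -0.61, adjusted p = 1.64e-04) and higher in PAB1 (0.56, 0.0240). Beyond WT neither was called (-0.35 and 0.44). In the other targeted strains, apart from POP2, it was not called with IAA. The causes were not tested. In the DMSO libraries of RAT1 replicates 1 and 2 and XRN1 replicate 3 the copper-induced metallothionein gene CUP1-1 stood at 29.1, 82.6 and 176 CPM.

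In WT with DMSO the level per kilobase of coding sequence spanned 10.4-fold across the 54 genes, from 15.4 to 159 CPM per kb with a median of 48.4. The highest were MRPL23, which encodes the counterpart of bacterial L13, at 159 ± 5.95 CPM per kb (SD, n = 3), MRPS12, the counterpart of the decoding centre protein S12, at 156 ± 10.2, and MRPS16 at 142 ± 4.15. The spreads of MRPL23 and MRPS12 overlapped, so these neighbours were not ordered. The lowest were MRPL39 at 22.9 ± 1.55, RSM22, which encodes a methyltransferase-like protein, at 20.4 ± 6.44, and MRPS8 at 15.4 ± 3.21 CPM per kb, and the spread of RSM22 overlapped those of both others. The spread of MRPL39 also overlapped those of the next genes up, MRPL44 (24.5 ± 1.41), MRPL11 (24.9 ± 3.35) and MRPL19 (25.6 ± 3.55), so the order at the low end was not settled. The median level per kb was 47.0 for the large and 56.6 for the small subunit genes.

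A Puf3 binding element was searched for as TGTANATA in the 200 bases after the stop codon of each coding gene tested, because it is the known shared sequence of these messengers. It was present on the sense strand in 53 of the 54 genes (98.15%), against 819 of all 5507 coding genes tested (14.87%). All 34 large subunit genes and 19 of 20 small subunit genes had it, and RSM22 had none. On the opposite strand the same letters were found in 10 of 54 (18.52%) and in 751 of 5507 (13.64%). The first element began 8 to 139 bases after the stop codon, with a median of 54, and 12 genes had more than 1. The free base was A in 25, T in 16, C in 11 and G in 1 of the 53, so that A made up 47.17% against 27.68% of the 766 other genes with the element. A C lay 2 bases before the element in 37 of 53 genes (69.81%), against 202 of 766 (26.37%). A match describes letters in this window and does not show binding. The sites below are from the genes that rose most in POP2 (MRPL32, MRPL3, MRPL15), the gene called in the largest number of strains (MRPS28) and the 4 genes not called in POP2 (MRPL23, MRPL37, MRPL50, MRPS16). They were read 5′ to 3′ on the coding strand from the RefSeq R64 genome, with the element in capitals.
MRPL32, chrIII:119206-119235, plus strand: aaacttaagccTGTATATAgaaacttaatt
MRPL3, chrXIII:323054-323083, plus strand: gtttgccatttTGTAGATAgagaactcctt
MRPL15, chrXII:760291-760320, plus strand: aaaaatttatcTGTAAATAgtgatcgaaat
MRPS28, chrIV:1147197-1147226, plus strand: gtagaaaagctTGTAAATAagaaaccgtca
MRPL23, chrXV:612535-612564, plus strand: tcttcaatccaTGTATATAtttatctgtta
MRPL37, chrII:741638-741667, plus strand: tttggtatcctTGTAAATAaatatgtgtgt
MRPL50, chrXIV:669719-669748, minus strand: gcgtacaatctTGTATATAggcaacatcgc
MRPS16, chrXVI:528881-528910, minus strand: tatgtatatgtTGTATATAtgttttacttg
Every site printed holds the element because the search required it, and the bases around it differ from gene to gene. RSM22, which was called in POP2, has no site to print.

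In WT, which has no tagged factor, 0 of 54 genes were called between IAA and DMSO (limma, Benjamini-Hochberg adjusted p under 0.05), where 1.68% of all genes tested were called higher and 1.73% lower. With replicate number as a block, on numbers that did not pass the pairing check in WT, 5 were lower, against 7.86% of all genes. At an unadjusted p under 0.05 there were 5, and the lowest adjusted p was 0.178. Counts at an unadjusted p, here and below, have no share over all genes beside them and are not read as results. The summed level of the 54 genes was 1932, 2161 and 2105 CPM with DMSO and 1989, 2068 and 1748 CPM with IAA, so the groups overlapped. The median log2 change was -0.09. Summed levels are of poly(A) RNA from bulk cultures, in which fewer cells of a type and less RNA per cell cannot be told apart.

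With IAA in the POP2 strain, mitochondrial ribosomal protein transcripts rose together, 50 of 54 being called higher and 0 lower. Across all genes tested 16.7% were called higher and 19.5% lower, so the count for these genes was far from the background. Their summed level was 2330, 2217 and 2312 CPM with DMSO and 3811, 3851 and 3788 CPM with IAA. All 3 IAA libraries lay above all 3 DMSO libraries, and above every other library of the series. The genes took 0.239% of the counts with DMSO and 0.394% with IAA. The median log2 change was 0.79, or 1.73-fold, against -0.06 over all genes tested. Changes ran from 0.11 to 1.34, with the middle 50% of genes between 0.67 and 0.89. In 53 of 54 genes the lowest IAA library exceeded the highest DMSO library, against 24.3% of all genes tested. Of the 22 group means, that of POP2 with IAA was the highest for 51 of the 54 genes.

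**Figure D1:**
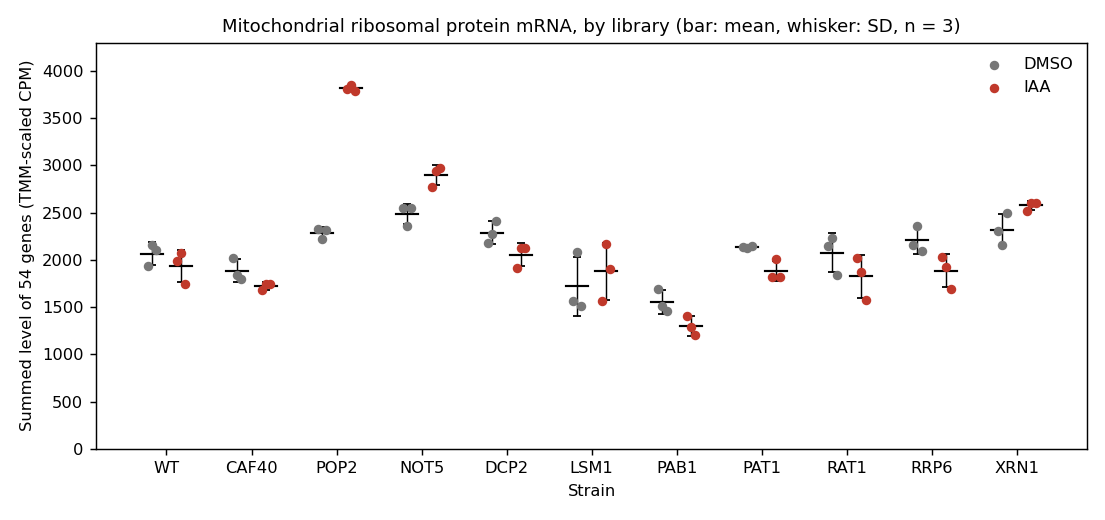
Summed level of the 54 mitochondrial ribosomal protein genes (TMM-scaled CPM) in each of 66 libraries, by strain, with grey points for DMSO and red for IAA, bars for the mean and whiskers for the SD of 3 libraries. The POP2 IAA libraries sit between 3788 and 3851 CPM, above all others, and the PAB1 IAA mean of 1301 CPM is the lowest.

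Both subunits took part. In the large subunit 31 of 34 genes were called higher in POP2, with a median log2 change of 0.82, and in the small subunit 19 of 20, with a median of 0.74. RefSeq's family names place 24 of the genes in families found in all domains of life, 9 in families shared with bacteria and 20 in families specific to mitochondria. These classes had 23, 7 and 19 genes called higher, with median log2 changes of 0.77, 0.76 and 0.80. RSM22 has no such family name.

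The largest rise was that of MRPL32 (YCR003W), which encodes the counterpart of bacterial L32. It stood at 15.6, 18.1 and 17.5 CPM with DMSO and at 42.2, 48.3 and 38.7 CPM with IAA. The groups were far apart, with a log2 change of 1.34 (SE 0.165, adjusted p = 1.64e-08). MRPL3 (YMR024W), a mitochondria-specific protein next to the polypeptide exit, went from 50.5, 59.8 and 52.0 CPM to 111, 135 and 121 CPM. Its log2 change was 1.18 (SE 0.138, adjusted p = 5.14e-09), and every IAA library was well above every DMSO library. MRPL15, another protein without a bacterial counterpart, went from 33.2, 26.5 and 22.4 CPM to 59.5, 60.7 and 56.2 CPM, again without overlap (log2 change 1.13, SE 0.153, adjusted p = 1.25e-07).

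Among small subunit genes RSM26 rose most. It had 31.7, 31.7 and 29.3 CPM with DMSO and 64.8, 62.7 and 63.2 CPM with IAA, tight groups whose log2 change was 1.04. RSM22, the gene without a Puf3 element in the window, was at 41.7, 38.6 and 28.8 CPM with DMSO and at 66.0, 77.5 and 75.3 CPM with IAA. The groups did not overlap, and the log2 change was 1.02 (SE 0.218, adjusted p = 2.14e-04). RSM23, the yeast relative of the human GTP-binding protein DAP3, rose less, from 87.4, 88.8 and 88.6 to 134, 131 and 128 CPM (log2 change 0.57). The decoding centre gene MRPS12 rose least among those called, from 83.0, 83.4 and 88.0 CPM to 107, 111 and 113 CPM (log2 change 0.38, adjusted p = 0.00429). In the large subunit MRPL36, the counterpart of bacterial L31, went from 30.2, 25.7 and 32.3 CPM to 48.2, 47.2 and 49.5 CPM (log2 change 0.72). Across the 54 genes the change in POP2 and the log2 level per kb with DMSO correlated with a Pearson r of -0.55 and a Spearman rho of -0.52, a description in which both measures share the DMSO libraries. With coding length r was 0.20 and rho 0.14.

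The 4 genes not called in POP2 are named because of their values. MRPL23 was at 79.0, 73.3 and 85.8 CPM with DMSO and 105, 87.9 and 91.1 CPM with IAA, all higher, with a log2 change of 0.25 (adjusted p = 0.0947). MRPL50, the counterpart of bacterial L9, had 22.5, 23.6 and 22.5 CPM against 26.8, 26.8 and 30.3 CPM (log2 change 0.28, adjusted p = 0.0765). These groups did not overlap either. MRPL37 had 25.0, 20.0 and 23.8 CPM with DMSO and 26.9, 25.4 and 26.5 CPM with IAA, a small difference (log2 change 0.20, adjusted p = 0.406). In MRPS16, the counterpart of bacterial S16, the groups overlapped at 53.4, 53.9 and 60.8 against 60.1, 56.8 and 64.2 CPM (log2 change 0.11, adjusted p = 0.607).

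**Figure D2:**
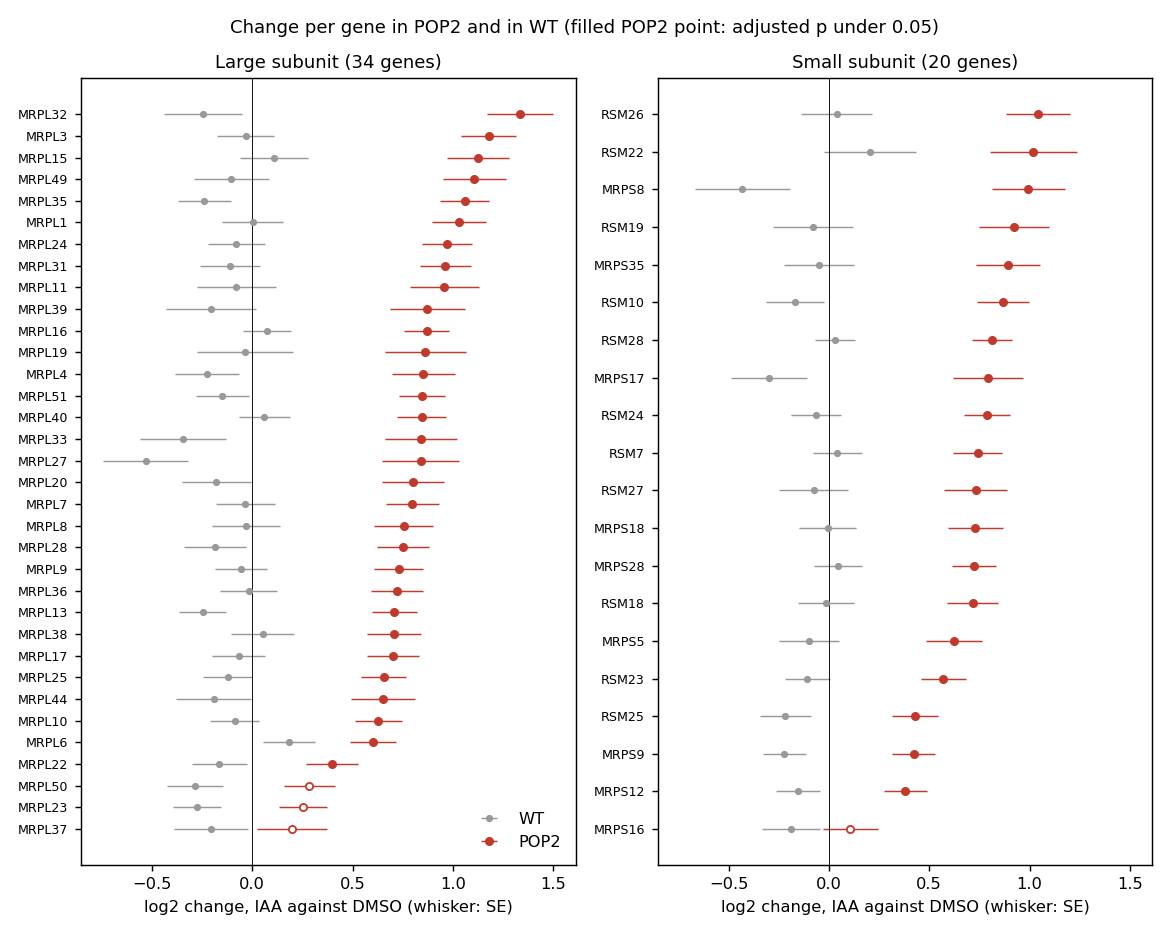
Log2 change with IAA against DMSO of each large (left) and small (right) subunit gene in POP2 (red) and WT (grey), with SE whiskers; filled red points passed an adjusted p under 0.05. In POP2 the changes run from 0.11 for MRPS16 to 1.34 for MRPL32, and 4 points are open.

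The rise in POP2 exceeded the change in WT in a test of that difference itself. It was called for 49 of 54 genes higher and 0 lower, against 6.19% and 3.50% of all genes tested, with a median difference of 0.82 on the log2 scale and -0.05 over all genes. By subunit these were 31 large and 18 small subunit genes. MRPL32 had 14.4, 16.9 and 17.3 CPM in WT with DMSO and 14.2, 15.7 and 11.5 CPM in WT with IAA, overlapping groups, and its change in POP2 exceeded that in WT by 1.58 (SE 0.255, adjusted p = 5.24e-05). MRPS8, the counterpart of bacterial S8, went from 9.38, 9.58 and 9.56 CPM to 17.5, 21.1 and 18.4 CPM in POP2. In WT it had 5.48, 8.25 and 7.86 CPM with DMSO and 5.89, 6.12 and 4.10 CPM with IAA. The difference between these changes was 1.42 (SE 0.297, adjusted p = 0.00113). The 10 comparisons beyond WT share the WT libraries. In CAF40, DCP2, LSM1, PAT1, RRP6 and XRN1 0 of 54 genes passed this test, where at most 0.377% of all genes did in either direction (LSM1, higher), and 1, 0, 8, 2, 0 and 9 had an unadjusted p under 0.05.

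Meiotic entry genes moved in the POP2 libraries too. Of the 8, 7 were called lower with IAA in POP2, against 19.5% of all genes tested, and 0 were called in WT. Their summed level was 8614 to 12200 CPM with DMSO and 4923 to 8006 CPM with IAA in POP2. In WT the median log2 change of the 8 was also negative, at -0.44. Their summed level there was 15402 to 17298 CPM with DMSO and 12223 to 15658 CPM with IAA, so the WT ranges overlapped. Beyond WT, 1 of the 8 was lower, against 3.50% of all genes. Their part in the result was not tested.

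Outside the 54 genes, coding genes were also counted by the element in POP2. Of the 766 other coding genes with a Puf3 element, 267 were called higher (34.86%) and 103 lower (13.45%), with a median log2 change of 0.18. Of the 4687 without it, 649 were higher (13.85%) and 1004 lower (21.42%), with a median of -0.08. The median of the 53 mitochondrial ribosomal protein genes with the element was 0.79, above both. The PUF3 transcript was at 171 ± 11.6 CPM with DMSO and 159 ± 18.8 CPM with IAA in POP2 (SD, n = 3), a log2 change of -0.10 that was not called (limma adjusted p = 0.641).

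**Figure D3:**
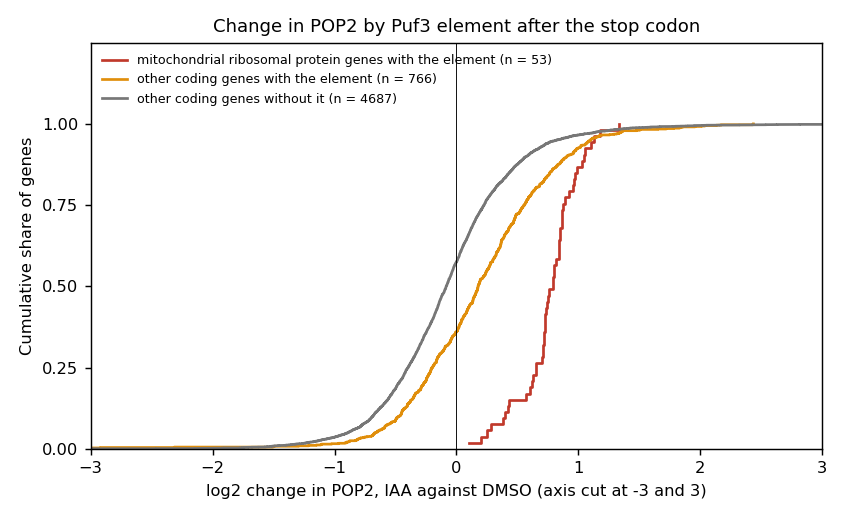
Cumulative share of genes (vertical axis) against the log2 change in POP2 with IAA (horizontal axis, drawn from -3 to 3), for the 53 mitochondrial ribosomal protein genes with a Puf3 element, the 766 other coding genes with it and the 4687 without it. The medians lie at 0.79, 0.18 and -0.08.

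The rest of the mitochondrial translation apparatus was read from lists of related genes. Over all genes tested 16.7% were called higher and 19.5% lower in POP2. All 22 mitochondrial ribosomal proteins that lie outside the naming rule rose in POP2, with a median log2 change of 0.69, and 16 of them rose beyond WT. Beyond WT 4 of 11 assembly factors, 7 of 11 translation factors, 8 of 14 synthetases and 6 of 16 translational activators rose, and 0 fell in each list. The shares of all genes called beyond WT in POP2 were 6.19% higher and 3.50% lower. MRP13, a small subunit protein, went from 35.0 ± 3.08 to 75.9 ± 1.58 CPM (log2 change 1.12), and MRP10 and RML2, the counterpart of bacterial L2, had log2 changes of 1.08 and 1.06. Of 11 assembly factors tested 8 rose and 1 fell, with the RNA helicase gene MSS116 at 1.35. Of 11 translation factors 7 rose and 1 fell, including GUF1, the relative of bacterial elongation factor LepA, at 1.17. Of 14 mitochondrial aminoacyl-tRNA synthetases 11 rose and 0 fell, with MST1, the threonyl enzyme, and MSK1, the lysyl enzyme, at 1.17 and 0.96. Of 16 translational activators and expression factors 9 rose and 0 fell, AEP3 by 0.92. In WT 0 genes of these lists were higher, and 1, an assembly factor, was lower, against 1.68% and 1.73% of all genes.

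In the strain of NOT5, another CCR4-NOT subunit, calls were also in the higher direction. With IAA 13 of 54 genes were called higher and 0 lower, against 6.14% and 4.08% of all genes tested, and 8 of the 13 belong to the large subunit. Their summed level was 2486 ± 111 CPM with DMSO and 2896 ± 108 CPM with IAA (SD, n = 3), and the median log2 change was 0.18. In 27 genes the IAA libraries all lay above the DMSO libraries, against 13% of all genes tested. MRPL36 rose most, from 33.4, 27.6 and 29.5 CPM to 46.0, 49.7 and 45.0 CPM (log2 change 0.64, adjusted p = 9.45e-04). MRPS17, the counterpart of bacterial S17, went from 48.7, 44.4 and 46.8 CPM to 69.5, 75.6 and 65.5 CPM (log2 change 0.59, adjusted p = 0.0249). RSM26 went from 32.6, 34.2 and 38.9 CPM to 40.5, 57.0 and 53.2 CPM (log2 change 0.50, adjusted p = 0.0384). In all 3 the groups did not overlap. Leaving out any single NOT5 library lowered the count to 3 to 6. A fit on the NOT5 libraries alone called 0, against 0.704% of all genes higher and 0.395% lower. With replicate number as a block, on numbers that passed the pairing check in NOT5, 17 were higher and 0 lower, against 12% and 11% of all genes. Beyond WT 0 of 54 passed in the main fit, where 0.309% of all genes were higher. There 12 had an unadjusted p under 0.05 and the median difference was 0.30. The block gave 7 higher beyond WT, against 3.02% of all genes, but the WT numbers did not pass the check. The POP2 and NOT5 changes of the 54 genes correlated with r = 0.29 and rho = 0.23, as a description. Among other coding genes in NOT5, 9.399% of those with a Puf3 element and 5.718% of those without were called higher. Of the 8 meiotic entry genes 0 were called in NOT5, and their summed means were 15907 CPM with DMSO and 15908 CPM with IAA.

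In CAF40 0 of 54 genes were called, against 4.74% of all genes higher and 3.07% lower. At an unadjusted p under 0.05 there were 11, and the summed level was 1887 ± 122 CPM with DMSO and 1723 ± 38.6 CPM with IAA (SD, n = 3). The median log2 change was -0.10. With the block, on numbers that did not pass the pairing check here either, 11 were lower, against 12.9% of all genes.

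**Figure D4:**
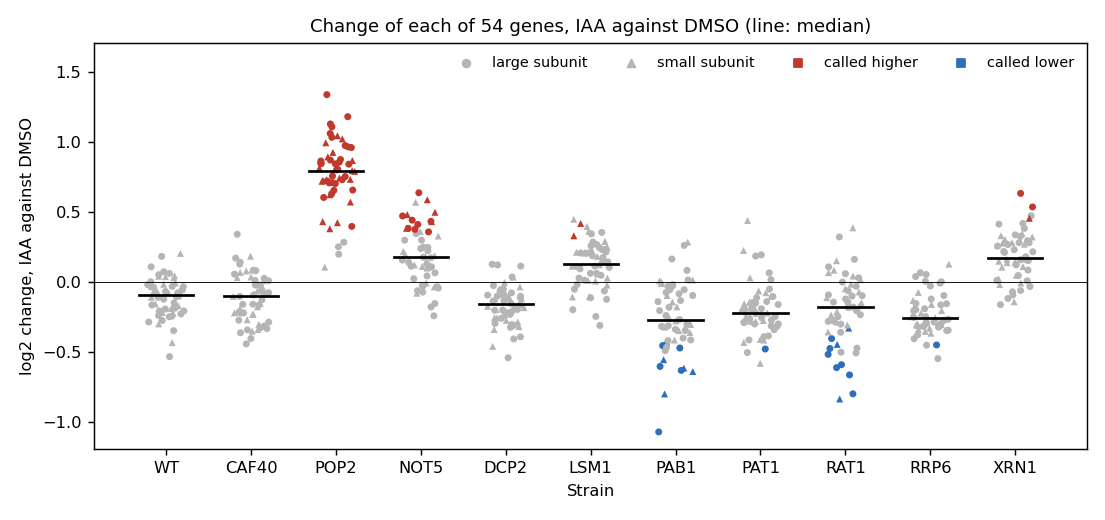
Log2 change with IAA against DMSO of each of the 54 genes in each strain, as circles for the large and triangles for the small subunit, red where called higher and blue where called lower, with the median as a line. The POP2 median of 0.79 stands above the other 10 medians, which lie between -0.27 and 0.18.

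The decapping strains showed few calls. In DCP2 0 of 54 passed, against 1.10% of all genes higher and 0.704% lower, with 9 at an unadjusted p under 0.05 and a median log2 change of -0.16. With replicate number as a block, 5 were called lower and 0 higher, against 5.04% and 4.82% of all genes. In PAT1 1 gene was called lower, against 0.275% of all genes lower and 1.06% higher, with a median change of -0.22. It was MRPL35, at 44.5, 51.1 and 48.6 CPM with DMSO and 34.1, 38.2 and 30.9 CPM with IAA, which did not overlap (log2 change -0.48, adjusted p = 0.0458). Leaving out any single PAT1 library ended this call. With the block, 1 gene was higher and 10 were lower in PAT1, against 4.02% and 3.48% of all genes.

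In LSM1 2 of 54 genes were called higher and 0 lower, against 8.13% and 10.4% of all genes tested. They were MRPS18, the counterpart of bacterial S11, at 64.6, 72.1 and 61.9 CPM with DMSO and 71.7, 113 and 84.5 CPM with IAA (log2 change 0.42, adjusted p = 0.0262), and MRPS28. MRPS28, the counterpart of bacterial S15, had 26.3, 33.0 and 24.8 CPM and 28.5, 40.8 and 37.0 CPM (log2 change 0.33, adjusted p = 0.0481). In both genes the groups overlapped, and replicate 2 was the highest library of each group. Leaving out a library moved the count to 0 or, without IAA replicate 1, to 15 and, without DMSO replicate 2, to 8. With the block, 10 were higher and 2 lower, against 17.4% and 20.1% of all genes. Of the 8 meiotic entry genes 6 were called lower with IAA in LSM1. Beyond WT 0 of the 8 were called, against 0.103% of all genes lower, with a median difference of -0.62. Their part in the result was not tested.

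In the strain of XRN1, the cytoplasmic exonuclease, 3 genes were called higher and 0 lower, against 5.35% and 3.50% of all genes, with a median change of 0.17. The share of higher calls was at the background. MRPL38, the counterpart of bacterial L14, went from 22.7, 16.8 and 21.5 CPM to 32.8, 33.6 and 27.9 CPM (log2 change 0.63, adjusted p = 0.00429). MRPL1 went from 33.6, 31.3 and 41.2 CPM to 52.1, 56.2 and 45.9 CPM (0.53, adjusted p = 0.0128), and MRPS16 from 56.9, 50.5 and 56.0 CPM to 87.9, 74.9 and 62.8 CPM (0.45, adjusted p = 0.0272). None of the 3 overlapped between groups. Leaving out IAA replicate 1 or 2 left 1 call and leaving out DMSO replicate 2 left 0, while the block gave 12 higher and 0 lower, against 12.9% and 12.1% of all genes. Fitted on the XRN1 libraries alone, 0 were called, as over all genes. Of the 8 meiotic entry genes 2 were called lower with IAA in XRN1. The sum of the 8 went from 15358 to 17511 CPM to 9875 to 15209 CPM. Beyond WT 0 of the 8 were called, as over all genes, with a median difference of -0.19. Their part in the result was not tested.

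In RAT1 10 genes were called lower and 0 higher, against 13% and 7.04% of all genes tested, so the share of lower calls was near the background. They comprised 7 large and 3 small subunit genes, and the median change was -0.18. MRPS28 fell most, from 38.8, 40.9 and 34.4 CPM to 26.4, 19.4 and 19.0 CPM (log2 change -0.83, adjusted p = 8.21e-07). MRPL17 went from 54.7, 60.8 and 52.0 CPM to 43.2, 29.2 and 26.3 CPM (-0.80, adjusted p = 1.69e-05), and MRPL4, the counterpart of bacterial L29, from 88.0, 84.4 and 77.7 CPM to 69.3, 40.7 and 52.6 CPM (-0.66, adjusted p = 0.00173). In all 3 the groups were apart, with IAA replicate 1 the highest of its group. Beyond WT 2 genes were lower, against 5.85% of all genes: MRPS28 by -0.88 (adjusted p = 2.96e-04) and MRPL17 by -0.73 (adjusted p = 0.00932). Without IAA replicate 3, DMSO replicate 1 or DMSO replicate 2 the count of 10 became 6, and without the 2 DMSO libraries with high CUP1-1 it became 2, with a median change of 0.02. That fit leaves 1 RAT1 DMSO library, which is assumed to vary like the other groups. Without IAA replicate 3 the count beyond WT became 1.

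In RRP6 1 gene was called lower and 0 higher, against 2.02% and 2.59% of all genes, with a median change of -0.26. It was MRPL25, at 33.2, 31.6 and 28.3 CPM with DMSO and 22.4, 24.4 and 21.0 CPM with IAA (log2 change -0.45, adjusted p = 0.0288), without overlap. The call ended without IAA replicate 1 or 3 or DMSO replicate 1 or 2, and with the block 13 genes were lower and 0 higher, against 7.98% and 6.35% of all genes.

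In PAB1 10 genes were called lower with IAA and 0 higher, against 14% and 8.15% of all genes tested, again near the background. The 10 were 6 large and 4 small subunit genes, with a median change of -0.27, and the summed level was 1556 ± 124 CPM with DMSO and 1301 ± 103 CPM with IAA (SD, n = 3). MRPL23, among the highest per kb in WT, fell most, from 55.0, 53.3 and 48.7 CPM to 28.2, 23.6 and 23.3 CPM (log2 change -1.07, adjusted p = 1.51e-07). MRPS9, the counterpart of bacterial S9, went from 59.9, 44.0 and 47.9 CPM to 31.2, 28.3 and 27.5 CPM (-0.80, adjusted p = 3.49e-06), and MRPL22 from 45.6, 33.9 and 38.9 CPM to 27.0, 27.6 and 22.1 CPM (-0.63, adjusted p = 0.00234). None of these groups overlapped. Beyond WT only MRPL23 was lower, by -0.79 (SE 0.186, adjusted p = 0.0168), against 0.892% of all genes lower. That call was lost without PAB1 IAA replicate 2 or 3 or DMSO replicate 1, and 2 or 3 genes passed without WT IAA replicate 3, PAB1 IAA replicate 1 or PAB1 DMSO replicate 2. The count of 10 became 5 without IAA replicate 3 and 6 without DMSO replicate 1, and it was 18 lower and 0 higher with the block, against 23.7% and 15.4% of all genes. On total counts it was 25, against 30.2% of all genes lower, and on the PAB1 libraries alone it was 1, against 1.01%. TMM factors were 0.630 to 0.706 in the PAB1 IAA and 0.756 to 0.814 in the PAB1 DMSO libraries, and scaling by total counts shifted the median of all genes by -0.21. Of the 8 meiotic entry genes 4 were also called lower. Beyond WT 0 of the 8 were called, against 0.892% of all genes lower, with a median difference of -0.39. Their part in the result was not tested.

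Across the 11 comparisons of IAA with DMSO, 1 of the 54 genes (MRPL37) was called in none, 28 in 1, 14 in 2, 10 in 3 and 1 in 4. Of the 54, 50 were called in POP2, where 16.7% of all genes tested were higher and 19.5% lower. The tally has no counterpart over all genes and is not read as a result. The gene called in 4 was MRPS28, higher in POP2, NOT5 and LSM1 and lower in RAT1. In POP2 it went from 48.9, 45.2 and 45.7 CPM to 82.6, 75.4 and 73.0 CPM, and in NOT5 from 45.5, 43.8 and 44.1 CPM to 56.3, 62.5 and 61.2 CPM, with no overlap in either. MRPS17 was called in 3 comparisons, higher in POP2 (0.79) and NOT5 (0.59) and lower in PAB1 (-0.64).

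With DMSO alone, each targeted strain was set against WT with DMSO, which asks whether the strains differed without auxin. These 10 comparisons share the WT libraries. In PAB1 34 of 54 genes were lower and 1 higher, against 23% and 22.3% of all genes tested, so the share of lower calls was above the background. Fitted on these groups alone, 17 were lower and 1 higher, against 14.2% and 14.1% of all genes. They comprised 21 large and 13 small subunit genes, the median log2 difference was -0.46, and in 36 genes all PAB1 libraries lay below all WT libraries, against 25.4% of all genes. MRPL38 had 19.7, 20.6 and 20.6 CPM in WT and 10.1, 10.4 and 6.89 CPM in PAB1, far below (log2 difference -1.16, adjusted p = 2.27e-06). MRPL25 had 30.6, 28.3 and 29.4 CPM and 18.6, 12.2 and 11.3 CPM (-1.09, adjusted p = 2.09e-08). MRPL39, the counterpart of bacterial L33 and a gene of low level, had 4.73, 5.26 and 4.65 CPM and 2.40, 3.20 and 1.81 CPM (-0.99, adjusted p = 0.00227). The groups did not overlap in these genes. MRPL16 was the gene that was higher, at 38.2, 33.7 and 37.3 CPM in WT and 59.4, 43.8 and 54.6 CPM in PAB1 (0.52, adjusted p = 4.47e-04), but on total counts its difference was 0.12 and not called (adjusted p = 0.447). Scaling by total counts shifted the median of all genes by -0.40 in this comparison and gave 48 lower and 0 higher, against 48.5% and 8.84% of all genes. In the same libraries 4 of the 8 meiotic entry genes were higher, summing to 20810 to 23658 CPM against 15402 to 17298 CPM in WT, and the part of this in the result was not tested.

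In LSM1 with DMSO 20 genes were lower and 1 higher, against 14.6% and 15.6% of all genes tested, with a median difference of -0.34. The lower genes were 13 of the large and 7 of the small subunit. The summed level was 1570, 2082 and 1516 CPM in LSM1 against 1932, 2161 and 2105 CPM in WT, so LSM1 replicate 2 lay within the range of WT, while each LSM1 library lay below the WT library of the same number. With replicate number as a block 22 genes were lower and 1 higher, against 17.3% and 18.4% of all genes. MRPS17 had 41.7, 39.0 and 40.3 CPM in WT and 18.5, 35.2 and 19.8 CPM in LSM1 (log2 difference -0.78, adjusted p = 0.00216). MRPL9, the counterpart of bacterial L3, had 44.7, 54.6 and 48.5 CPM and 28.0, 44.2 and 26.8 CPM (-0.61, adjusted p = 4.16e-04), and MRPL17 had 56.7, 67.8 and 65.4 CPM and 36.4, 54.4 and 40.0 CPM (-0.56, adjusted p = 0.00149). In all 3 the groups did not overlap and replicate 2 was nearest to WT. MRPS16 went the other way, at 52.4, 53.2 and 50.3 CPM in WT and 85.3, 98.9 and 89.4 CPM in LSM1 (0.81, adjusted p = 2.09e-05). The 21 calls became 35 without LSM1 replicate 2, 7 without LSM1 replicate 1, 10 without LSM1 replicate 3 and 12 without WT replicate 2 or 3. Shares over all genes are not given for these fits. A fit on these 2 groups alone called 1 higher and 0 lower, against 10.3% and 8.92% of all genes. In these libraries 7 of the 8 meiotic entry genes were lower, summing to 7322 to 12674 CPM, and their part in the result was not tested. The PUF3 transcript was lower in LSM1 (log2 difference -0.75, adjusted p = 9.90e-05) and higher in PAB1 (0.55, adjusted p = 0.00227).

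In POP2 with DMSO 10 genes were higher than in WT and 0 lower, against 11.9% and 12.9% of all genes tested, so the share of higher calls was not far above the background. There were 7 large and 3 small subunit genes among them, and the median difference was 0.16. MRPL38 had 19.7, 20.6 and 20.6 CPM in WT and 31.6, 27.6 and 31.1 CPM in POP2 (log2 difference 0.56, adjusted p = 0.00399). MRPL28 had 18.8, 17.2 and 19.5 CPM and 27.6, 23.3 and 29.6 CPM (0.53, adjusted p = 0.00449). MRPL51 had 28.6, 26.1 and 29.1 CPM and 36.5, 41.6 and 42.4 CPM (0.52, adjusted p = 0.00156), but its coding sequence overlaps that of YPR099C on the other strand by 323 bp. None of these groups overlapped. The 10 calls became 4 without WT replicate 1, 5 without WT replicate 3 and 6 without POP2 replicate 1 or 3. Meiotic entry genes were lower here for 5 of 8, and their part in the result was not tested.

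**Figure D5:**
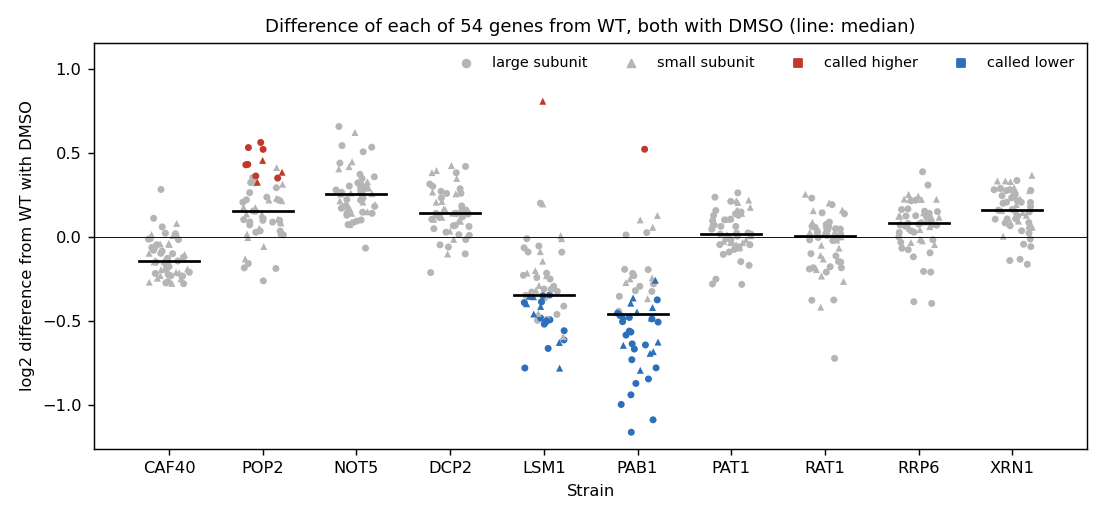
Log2 difference of each of the 54 genes between each targeted strain and WT, both with DMSO, as circles for the large and triangles for the small subunit, red where called higher and blue where called lower, with the median as a line. The medians of PAB1 (-0.46) and LSM1 (-0.34) lie lowest.

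In NOT5 with DMSO 0 genes were called, against 0.0172% of all genes higher and 0.154% lower. There 53 of 54 differences were positive, with a median of 0.26 against -0.03 over all genes tested. In 31 genes all NOT5 libraries lay above all WT libraries, against 10% of all genes tested. At an unadjusted p under 0.05 there were 20 of 54, a count without a share over all genes to set it against. In CAF40, DCP2, PAT1, RAT1, RRP6 and XRN1 with DMSO 0 of 54 genes were called by limma, and 4, 4, 0, 3, 2 and 5 had an unadjusted p under 0.05. All genes tested gave few calls there as well, at most 0.635% higher (RRP6) and 0.583% lower (RAT1), with 0.0172% and 0.0343% in CAF40.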

How the data were processed

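Poly(A) RNA was captured with a directional kit and sequenced paired-end, per the labels' protocols, so levels are of polyadenylated RNA. The submitters' processing notes name STAR 2.7.10a, RSEM 1.3.1 and DESeq2 1.48.1. Genome build and annotation are not given in the sources used here. The authors deposited a table of whole-number counts per gene, unscaled, whose columns also hold their principal component scores above the gene lines. Those score lines, and 6 columns that match no sample, were not used.

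The table's symbol column holds descriptions, so symbols came from RefSeq (R64) through systematic names, matched for 5626 of 6171 identifiers, as did coordinates. Genes needed 0.484 CPM in at least 3 libraries and 15 counts in total, which left 5828 and removed 343. Counts were scaled by TMM, given a pseudocount of 0.5 and voom weights, and fitted with limma 3.58.1 in R 4.3.3, with 1 mean per group over all 66 libraries. Limma was chosen over a count model because the deposited columns also hold score lines, although the gene lines that were fitted are counts. P-values were adjusted by Benjamini-Hochberg over all genes tested, in each of 31 comparisons, and genes under 0.05 were called. The procedure was tested on simulated data. Replicates of a group differed by far more than counting noise (chi-square per degree of freedom 19.9 to 1065). The counting floors take no account of PCR copies, which cannot be recognised without molecular identifiers.

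Replicate numbers were checked for pairing from residuals of same-numbered IAA and DMSO libraries, which correlated with r between -0.16 and 0.70. Every pair exceeded 0.1 in 8 of 11 strains, but not in WT, CAF40 and POP2. DMSO libraries paired with those of WT in LSM1 only.

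Named genes were, per comparison with at least 5 calls, the 3 that rose most and the 3 that fell most, if their groups did not overlap (2 and 2 beyond WT), or all genes called where there were fewer than 5. Added to these was MRPS28, called in more strains than any other of the 54 genes. MRPS17 was chosen by its larger median absolute change from 10 genes called in 3 strains. The 3 highest and 3 lowest per kb were added too, as were RSM22, RSM23, RSM26, MRPL32, MRPL36 and MRPS12. The genes and lists were chosen with earlier results of these data known. MRPL19 overlaps YNL184C by 113 bp on the same strand. The alternatives were median-of-ratios and total-count scaling, no filter, a replicate block, only the groups compared and each library left out. Fits without the DMSO libraries with high CUP1-1 were also made. Figures were drawn with Python 3.11.15 and matplotlib 3.10.9.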

Additional observations from a re-analysis of the deposited data

Results flagged for a closer look

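Several results drew a closer look because the change with IAA differed from that of WT in a test of the difference itself. In POP2 this held for 49 of the 54 genes, among them MRPL32, whose change exceeded that of WT by 1.58 on the log2 scale, and MRPS8, by 1.42. Over all genes tested 6.19% were higher beyond WT in POP2. In RAT1 it held for 2 genes, MRPS28 (-0.88) and MRPL17 (-0.73), no more than the 5.85% of all genes that were lower. In PAB1 it held for 1 gene, MRPL23 (-0.79), against 0.892% of all genes. That count was 0 to 3 with single libraries left out. On only the groups compared it was 0, as over all genes. All comparisons beyond WT share the 6 WT libraries.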

How the results depend on the processing

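No called result changed direction under the alternatives tried. In POP2 the count of genes higher with IAA (50) was 49 to 50 with each library left out and 52 with the replicate block, and beyond WT (49) it was 39 to 50 with each library left out. With replicate number as a block, genes called with IAA became 5 in WT (all lower, against 7.86% of all genes), 11 in CAF40 (all lower, against 12.9%), 5 in DCP2, 12 in LSM1, 18 in PAB1, 11 in PAT1, 13 in RRP6 and 12 in XRN1, and beyond WT 7 in NOT5 (higher, against 3.02%), 1 in LSM1 (higher, 2.04%), 4 in PAB1 (lower, 6.11%), 5 in RAT1 (lower, 10.4%) and 1 in XRN1 (higher, 0.532%). With total-count scaling they became 6 in NOT5 (higher, against 5.9% of all genes), 25 in PAB1 (lower, 30.2%) and 6 in XRN1 (higher, 7.82%). They became 0 in LSM1, against 5.99% higher and 14.8% lower, and 0 in RRP6, against 2.8% and 1.68%. Beyond WT they became 5 in PAB1 (lower, against 7.48%). The fit on only the groups compared had fewer libraries to estimate the spread. Genes called with IAA then became 5 in RAT1 (lower, against 9.52% of all genes) and 1 in PAB1 (lower, 1.01%). They became 0 in NOT5, LSM1, PAT1, RRP6 and XRN1, where 0.704%, 0.309%, 0.652%, 1.99% and 0% of all genes were higher. Lower there were 0.395%, 0.172%, 0.172%, 1.78% and 0%. Beyond WT they became 0 in PAB1, as over all genes, and 1 in RAT1 (lower, against 4.96%). With DMSO they then became 1 in LSM1 (higher, against 10.3%) and 18 in PAB1. Of those 18, 17 were lower and 1 higher, against 14.2% and 14.1%. Without the low-count filter 2 genes passed beyond WT in PAB1. Without the DMSO libraries of RAT1 with high CUP1-1 the RAT1 count was 2. With each library left out in turn the counts were 0 to 1 in CAF40, 3 to 6 in NOT5, 0 to 15 in LSM1, 5 to 13 in PAB1, 0 in PAT1, 6 to 13 in RAT1, 0 to 1 in RRP6 and 0 to 4 in XRN1. Beyond WT they were 0 to 3 in LSM1, 0 to 3 in PAB1 and 1 to 3 in RAT1, and with DMSO 4 to 9 in POP2, 7 to 35 in LSM1 and 0 to 1 in RAT1. Counts with a library left out have no share over all genes beside them, so they show only how stable the counts were. Except where the construction gives it, the cause of these changes was not tested. The replicate numbers of WT, CAF40 and POP2 did not pass the pairing check, so their blocked counts rest on a shared number only. Low counts limit genes such as MRPL39 and MRPS8, whose differences in single libraries rest on few CPM.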
